A study of Homo sapiens with 4 samples.

Results

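The insulin-like growth factor (IGF) axis was examined in MDA-MB-231, a triple-negative human breast cancer cell line, and in LM2-4175, a cell line of the same origin with high metastasis to the lung. Its 10 genes were taken by name from the 57815 genes of the deposited expression table, as the ligand IGF2, the receptors IGF1R, INSR and IGF2R, and the binding proteins IGFBP2 to IGFBP7. RNA-Seq of total RNA was performed on 2 libraries of each cell line, 4 in all, from cells grown in serum-containing DMEM without treatment. The labels do not say whether the libraries of a cell line came from separate cultures. The 4 libraries were combined by the authors into 1 FPKM value per gene and cell line (fragments per kilobase of transcript, corrected for library depth), given with a lower and an upper bound. No SD and no test between replicates could therefore be had from these values, and each difference below compares the pooled values of 2 cell lines. The authors' own comparison of the cell lines, made with Cuffdiff, was not used, and its calls can differ from those below. A gene not called here is not thereby shown to be unchanged. LM2-4175 is a single derived line, so a difference from MDA-MB-231 cannot be told apart from any other difference between these lines.

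IGF1 and IGF2 are secreted hormones that stimulate growth and survival through the receptor tyrosine kinase IGF1R and, for IGF2, also through one form of the insulin receptor INSR. IGF2R, the cation-independent mannose 6-phosphate receptor, takes IGF2 up for degradation in lysosomes and carries lysosomal enzymes. The IGFBPs are secreted proteins that hold the ligands outside the cell, and proteases such as pappalysin free the ligands again by cutting them. In breast cancer cells the axis is known for its part in proliferation and for its interplay with oestrogen signalling.

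Of the 10 genes, 9 were tested, which means that the status was OK in both cell lines and the mean of the 2 FPKM values was at least 0.5. For each gene the change was expressed as log2 of FPKM + 1 in LM2-4175 over FPKM + 1 in MDA-MB-231. Adding 1 makes the change of a low gene look smaller than it is. Calls were made where the change was at least 1.5-fold on this scale and the bounds of the cell lines did not overlap. IGFBP2 was called higher in LM2-4175, and IGFBP3, IGFBP6 and IGFBP7 were called lower. This made 4 of the 9 tested genes, 1 higher and 3 lower, where 9.27% of the 13911 genes tested in the whole table were called (4.67% higher and 4.61% lower). The median absolute change on the log2 scale was 0.95 over the 9 genes and 0.28 over all genes tested, and the median of the signed changes was 0.10 against -0.04. These comparisons only describe the genes, as members and rules were chosen with earlier results of these data known. The ligand and the receptors were not called in either direction. In RNA from a whole culture, fewer cells that use a gene and less RNA of it per cell cannot be told apart.

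Of the 10 genes, 8 had a promoter in the RefSeq table (GRCh38.p14). Each of these was placed on GRCh37, the build of the expression table, by an exact match. The match occurred once on the chromosome of the gene in the gene's orientation, and other chromosomes were not searched. IGF2 and IGFBP7 had no entry. IGFBP2 had several, and the one nearest the start of the canonical transcript was used. Shown are the 100 bases before the start site of the 2 binding protein genes called lower that had an entry, of IGFBP4, the most abundant of the 10 genes, and of IGFBP2, the gene called higher. They are written 5′ to 3′ on the strand of the gene. Capitals mark matches, on either strand, to a TATA box (TATANA) or a GC box (GGGCGG).
IGFBP3 (chr7:45960872-45960971, minus strand): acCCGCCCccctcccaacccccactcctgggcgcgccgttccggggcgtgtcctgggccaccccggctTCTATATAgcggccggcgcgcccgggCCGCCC
IGFBP6 (chr12:53491351-53491450, plus strand): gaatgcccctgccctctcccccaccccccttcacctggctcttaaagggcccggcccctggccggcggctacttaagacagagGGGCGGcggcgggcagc
IGFBP4 (chr17:38599602-38599701, plus strand): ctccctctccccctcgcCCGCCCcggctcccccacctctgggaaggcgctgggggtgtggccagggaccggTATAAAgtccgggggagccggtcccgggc
IGFBP2 (chr2:217498043-217498142, plus strand): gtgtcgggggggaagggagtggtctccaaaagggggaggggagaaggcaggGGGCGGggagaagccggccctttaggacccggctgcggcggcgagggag

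In windows of 300 bases around the start site, a TATA box was found in 2 of the 8 promoters, against 19.1% of the 34796 promoters of the table. IGFBP4 held 1 match that began 29 bases before the start, and IGFBP3 held 2 overlapping matches on opposite strands that began 32 and 30 bases before it. A GC box was found in 7 of the 8 promoters, all except that of IGFBP5, and in 44.9% of all promoters. IGFBP2 and IGFBP6 each held 1 GC box and no TATA box. The E-box CACGTG was found in IGF2R, with 3 matches, and in 7.21% of all promoters. The AP-1 element TGANTCA was found in none of the 8 and in 7.73% of all promoters. The GC content of the 8 windows ranged from 59.0% in IGFBP5 to 79.7% in IGF1R, against a median of 58.7% over all promoters. The set of all promoters includes further start sites of the same gene. The IGFBP2 windows not used had a GC content of 55.3%, with a GC box, and of 56.7%, without one. IGFBP2, called higher, and IGFBP6, called lower, thus held the same set of motifs, while IGFBP3, also called lower, shared the TATA box and GC box with IGFBP4. These are matches of letters and not measured sites.

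The levels of the 10 genes spanned more than 3 orders of magnitude in each cell line. IGFBP4 headed both lists, and IGFBP5 closed both. In MDA-MB-231 the order was IGFBP4, IGFBP7, IGFBP6, IGFBP3, IGF2R, IGF1R, INSR, IGF2, IGFBP2 and IGFBP5. The bounds of IGFBP4 and IGFBP7 overlapped there, as did those of the neighbours among IGFBP6, IGFBP3 and IGF2R. The same held for the pair IGF1R and INSR and for the neighbours among IGF2, IGFBP2 and IGFBP5. The order within these sets is thus not settled. In LM2-4175 the order was IGFBP4, IGFBP7, IGF2R, IGFBP6, IGFBP3, IGF1R, INSR, IGFBP2, IGF2 and IGFBP5. IGFBP4 stood apart from IGFBP7, IGFBP7 from IGF2R, and IGF2 from IGFBP5, while the bounds of all other neighbours in this order overlapped.

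**Figure D1:**
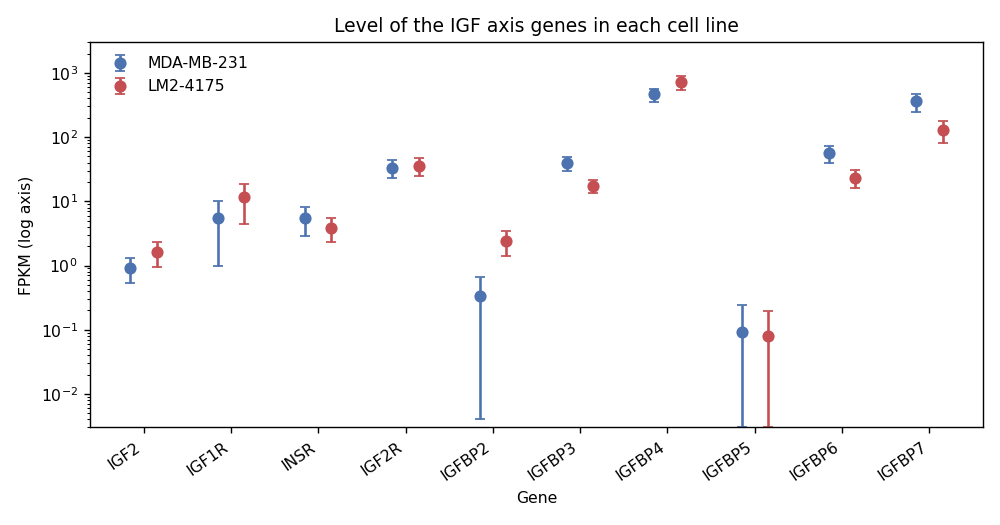
Level of each gene of the IGF axis in MDA-MB-231 and LM2-4175, on a log axis in FPKM, with points at the deposited value and bars at the authors' bounds (the lower bounds of IGFBP5 are 0 and reach the foot of the axis). IGFBP4 lies highest in both cell lines at 463 and 722 FPKM, and the bounds of IGFBP2, IGFBP3, IGFBP6 and IGFBP7 do not overlap between the cell lines.

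IGF2 (ENSG00000167244, chr11:2150342-2179621 on GRCh37, minus strand), an imprinted fetal growth factor, was low in both cell lines. MDA-MB-231 had 0.909 FPKM of it, between bounds of 0.531 and 1.29, and LM2-4175 had 1.62 FPKM, between 0.949 and 2.30. The value was the higher in LM2-4175, but the bounds overlapped, and the change of 0.46 on the log2 scale was under 1.5-fold. Of the exon bases of IGF2, 44.4% also belong to other genes in GENCODE 44. The largest overlap, 37.9%, is with the protein-coding gene ENSG00000284779, which has no value in the expression table. The readthrough gene INS-IGF2 shares 20.4%. The counting is not stated to have resolved shared bases, so the level of IGF2 is uncertain. INS-IGF2 itself had 0.0395 FPKM in MDA-MB-231, and in LM2-4175 it was listed at 0. The other ligands gave little signal, with IGF1 at 0.00165 and 0.00522 FPKM and INS, the insulin gene, listed at 0 in both cell lines. H19, the imprinted noncoding RNA beside IGF2, was at 1.14 FPKM in both.

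IGF1R (ENSG00000140443, chr15:99191768-99507759, plus strand), the receptor tyrosine kinase for IGF1 and IGF2, had 5.56 FPKM in MDA-MB-231 between bounds of 0.991 and 10.1. In LM2-4175 the value was 11.7 FPKM, between 4.39 and 18.9. The value in LM2-4175 was 2.10 times that in MDA-MB-231, and the bounds, which overlapped, allow a ratio from 0.433 to 19.1. The upper bound exceeded the value by 82.2% in the first and by 62.4% in the second cell line, while the median over all genes tested was 38.6% and 38.1%. IGF1R was thus among the less precisely measured of the 10 genes, and its change of 0.95 on the log2 scale was not called. Among the 13911 genes tested, 674 had a larger increase.

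INSR (ENSG00000171105, chr19:7112266-7294425, minus strand), the insulin receptor, which can also pair with IGF1R in hybrid receptors, had 5.50 FPKM in MDA-MB-231, between bounds of 2.85 and 8.15. In LM2-4175 it had 3.89 FPKM, between 2.32 and 5.46. The difference of -0.41 on the log2 scale was smaller than the bounds. Within a cell line, where FPKM is scaled to length, IGF1R stood at 1.01 times INSR in MDA-MB-231 and at 3.0 times INSR in LM2-4175. The bounds allow 0.122 to 3.55 for the first ratio and 0.803 to 8.17 for the second, so a shift between these receptors was not detectable at this precision. INSRR, the orphan receptor of the same family, was listed under 0.01 FPKM in both.

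IGF2R (ENSG00000197081, chr6:160390114-160534539, plus strand) was the most abundant receptor in both cell lines. Its values of 33.2 FPKM (bounds 23.0 to 43.4) in MDA-MB-231 and 35.6 FPKM (bounds 24.4 to 46.8) in LM2-4175 differed by 0.10 on the log2 scale, with a ratio between 0.561 and 2.04 by the bounds. It exceeded IGF1R 5.97-fold in the one cell line and 3.05-fold in the other, and in each cell line the bounds of these receptors did not overlap. Of its exon bases, 2.52% are shared with the pseudogene CHP1P2, listed at 0.199 and 0.287 FPKM.

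Among the 6 binding proteins, 5 were tested, and 4 of these were called, 3 in the lower and 1 in the higher direction. Over all genes tested, 9.27% were called (4.67% higher and 4.61% lower). The median absolute change of the 5 was 1.24 (log2), against 0.28 over all genes tested. IGFBP7 (ENSG00000163453, chr4:57896939-57976551, minus strand), a secreted matrix protein that binds IGFs with low affinity, had 361 FPKM in MDA-MB-231, between bounds of 247 and 476. In LM2-4175 it had 130.0 FPKM, between 79.6 and 180.3. It fell by 1.47 on the log2 scale, was 2.78 times as high in MDA-MB-231 (1.37 to 5.98 by the bounds), and moved from place 229 to place 695 among the genes tested. A larger decrease was found for 221 of the 13911 genes. Of the exon bases of IGFBP7, 18.3% overlap genes on the opposite strand, and reads of these cannot be told apart where strand was not used in counting. The main one, POLR2B, which encodes an RNA polymerase II subunit, was at 79.5 and 67.1 FPKM and shares 13.5% of the exon bases.

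IGFBP6 (ENSG00000167779, chr12:53491220-53496129, plus strand), which prefers IGF2 over IGF1, had 56.1 FPKM in MDA-MB-231, between bounds of 39.8 and 72.4. In LM2-4175 it had 23.2 FPKM, between 16.0 and 30.3. The bounds did not overlap, the fall was 2.42-fold (1.31 to 4.52 by the bounds) and the log2 change was -1.24. IGFBP3 (ENSG00000146674, chr7:45951844-45961473, minus strand), the main IGF carrier of the circulation, had 39.1 FPKM in MDA-MB-231, between 29.9 and 48.4. In LM2-4175 its level was 17.5 FPKM, between 13.2 and 21.8. It fell 2.23-fold (1.37 to 3.66 by the bounds), a log2 change of -1.12. IGFBP6 exceeded IGFBP3 by a ratio of 1.43 in the one cell line and 1.32 in the other, and the bounds of these genes overlapped in both. No exon bases of IGFBP3 or IGFBP6 are shared with another gene.

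IGFBP2 (ENSG00000115457, chr2:217497551-217529159, plus strand), a binding protein that also contacts integrins, was low in both cell lines. Its 0.332 FPKM in MDA-MB-231 lay between bounds of 0.00404 and 0.659, and its 2.45 FPKM in LM2-4175 lay between 1.41 and 3.49. The ratio was 7.38, with a lower limit of 2.14 by the bounds, and the rise on the scale of FPKM + 1 was 1.37 (log2). A larger increase was found for 330 genes. As the lower bound in MDA-MB-231 lies close to 0, the upper limit of the ratio carries no information.

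IGFBP4 (ENSG00000141753, chr17:38599702-38613977, plus strand), a binding protein known as an inhibitor of IGF action until it is cut by pappalysin, had 463 FPKM in MDA-MB-231, between bounds of 354 and 572. In LM2-4175 it had 722 FPKM, between 543 and 901. The ratio of 1.56 passed 1.5-fold, but the bounds overlapped and it was not called. With FPKM scaled to the same sum in both cell lines the bounds came apart and it was called higher, with a log2 change of 0.72 in place of 0.64. It stood at place 187 in MDA-MB-231 and at place 118 in LM2-4175 among the genes tested. IGFBP5 (ENSG00000115461, chr2:217536828-217560272, minus strand), the neighbour of IGFBP2 on the same chromosome, was listed at 0.0929 FPKM and 0.0796 FPKM, with lower bounds of 0 in both, and was not tested.

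**Figure D2:**
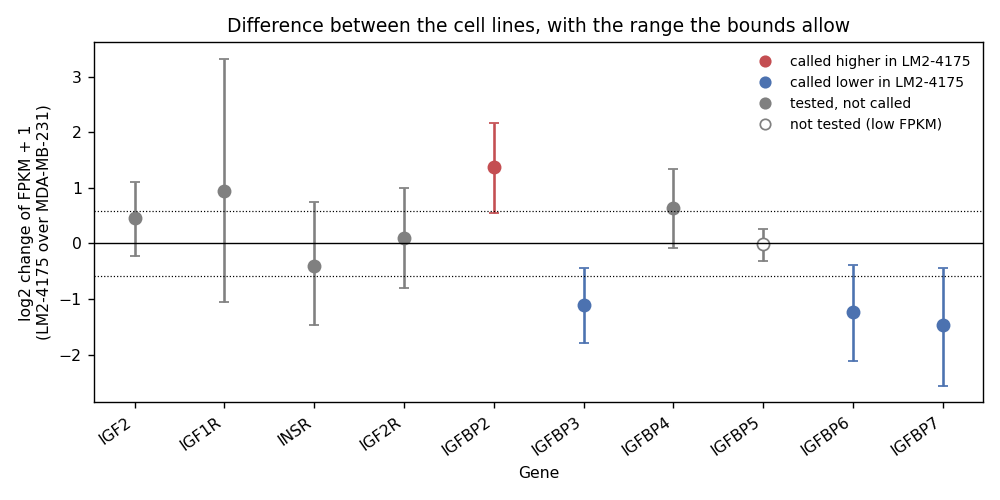
Change of the 10 genes between the cell lines as log2 of FPKM + 1 in LM2-4175 over MDA-MB-231, with points at the deposited values, bars for the range that the authors' bounds allow, and dotted lines at 1.5-fold. IGFBP2 (red, called higher) lies above 0 at 1.37, IGFBP3, IGFBP6 and IGFBP7 (blue, called lower) lie below 0 between -1.12 and -1.47, and the ranges of the other genes include 0.

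Together the 6 binding proteins summed to 920.0 FPKM in MDA-MB-231 and 895 FPKM in LM2-4175, while the shares within the sum differed. IGFBP4 made up 50.3% of it in MDA-MB-231 (37.2% to 64.4% by the bounds) and 80.6% in LM2-4175 (69.7% to 89.1%). IGFBP7 made up 39.3% (26.2% to 52.9%) and 14.5% (7.68% to 23.9%). The limits of both shares did not overlap between the cell lines. IGFBP6 held 6.10% and 2.59%, IGFBP3 held 4.25% and 1.96%, and IGFBP2 held 0.0361% and 0.274%. IGFBP4 exceeded IGFBP7 1.28-fold in MDA-MB-231 (0.744 to 2.32) and 5.55-fold in LM2-4175 (3.01 to 11.3). It exceeded IGFBP3 11.8-fold (7.32 to 19.1) and 41.2-fold (24.9 to 68.0). Both ratios were thus higher in LM2-4175 beyond the limits that the bounds set.

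**Figure D3:**
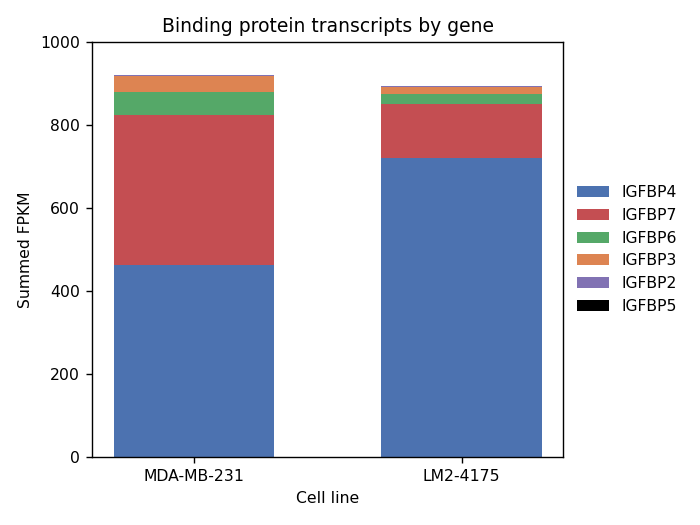
Stacked bars of the FPKM of the 6 binding proteins in MDA-MB-231 and LM2-4175, with 1 colour per gene and no error drawn. In MDA-MB-231 the share of IGFBP4 is 50.3% and that of IGFBP7 39.3%, against 80.6% and 14.5% in LM2-4175.

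The wider pathway was described by 12 lists, which hold 88 genes besides the 10. Of these, 73 were tested, 36 with a higher and 37 with a lower value in LM2-4175. Of the 73, 3 were called in each direction, where 9.27% of all genes tested were called (4.67% higher and 4.61% lower). The median change of the 73 was 0.00 on the log2 scale and their median absolute change was 0.26, close to 0.28 over all genes tested. Among the other binding proteins, IGFBP1, which lies beside IGFBP3, had 21.8 FPKM in MDA-MB-231, between bounds of 16.4 and 27.2, and 12.7 FPKM in LM2-4175, with an upper bound of 16.04. It was called lower, with a log2 change of -0.73. This call was lost when FPKM was scaled to the same sum or to the median of the genes tested, and with a change of at least 2-fold. IGFALS, the third partner of the circulating IGFBP3 complex, was near 0 in both cell lines.

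The proteases that cut binding proteins and their inhibitors gave 2 genes called higher and 1 called lower of 7 tested. The share called over all genes tested was 9.27% (4.67% higher and 4.61% lower). PAPPA, the pappalysin that cuts IGFBP4, rose by 1.20 (log2), with 0.934 FPKM in MDA-MB-231 between bounds of 0.446 and 1.42, against 3.43 FPKM in LM2-4175 between 2.10 and 4.77. STC1, the stanniocalcin that inhibits pappalysin, rose from 16.8 FPKM (12.9 to 20.8) to 155 FPKM (119 to 190.3), or by 3.12 (log2). An inhibitor and its target were thus both called higher, and the ratio of STC1 to PAPPA was 18.0 (9.07 to 46.6) and 45.1 (25.0 to 90.6), with overlapping limits. The ratio of IGFBP4 to PAPPA was 496 (249 to 1283) and 210.3 (114 to 429), also with overlapping limits. CTSD, the lysosomal protease cathepsin D, which is sorted through mannose 6-phosphate receptors, fell by 1.57 (log2), from 920.5 FPKM, between bounds of 665 and 1176, to 309 FPKM, between 231 and 387.

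The calls in the receptors' signalling lists stand beside a share of 9.27% called over all genes tested (4.67% higher and 4.61% lower). IRS2, an adaptor that couples IGF1R and INSR to PI3K, fell from 5.81 FPKM (4.36 to 7.25) to 3.36 FPKM (2.48 to 4.24), and it was the only gene called of the 9 adaptors and phosphatases tested. Its log2 change was -0.64, and the call was lost with FPKM scaled to the same sum and with a change of at least 2-fold. IRS1, the related adaptor, had 16.2 and 16.3 FPKM. None of the 28 genes of the PI3K-AKT-mTOR branch was called, with 15 higher and 13 lower and a median of 0.01. The largest differences there were PIK3CD, a catalytic PI3K subunit, at 5.36 and 17.6 FPKM, RHEB, the mTORC1 activator, at 297 and 183 FPKM, and FOXO4, a transcription factor held back by AKT, at 2.31 and 4.34 FPKM. The bounds of each overlapped between the cell lines. None of the 10 genes of the Ras-ERK branch was called either, with ARAF, a RAF kinase, at 50.1 and 28.8 FPKM as the largest difference.

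The remaining lists gave 1 call, where 9.27% of all genes tested were called (4.67% higher and 4.61% lower). ESM1, a secreted proteoglycan with an IGFBP domain, rose from 0.165 FPKM (0 to 0.376) to 1.11 FPKM (0.521 to 1.71), and it was the only one called of 6 tested genes with this domain outside the family. Its call was lost with a mean of at least 1 FPKM and with a change of at least 2-fold. None of the 7 genes of mannose 6-phosphate sorting was called, and M6PR, the second receptor of this kind beside IGF2R, had 63.1 and 69.7 FPKM. LRP1, an endocytic receptor that binds IGFBP3, had 5.15 and 17.2 FPKM with overlapping bounds. Of the proteins that bind the IGF2 messenger RNA, IGF2BP2 had 67.6 and 61.4 FPKM and IGF2BP3 had 18.1 and 35.7 FPKM, with overlapping bounds for each, and IGF2BP1 was at 0.0700 and 0.113 FPKM.

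**Figure D4:**
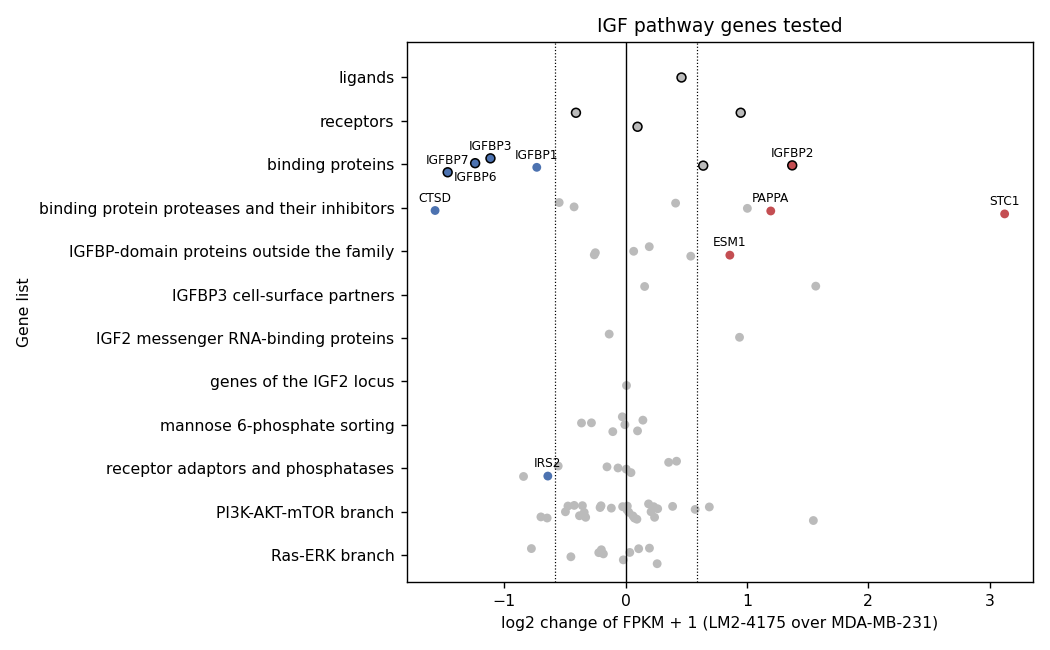
Change of each tested gene of the 12 pathway lists as log2 of FPKM + 1 in LM2-4175 over MDA-MB-231, with 1 point per gene, outlined points for the genes of the axis, red for genes called higher, blue for genes called lower and dotted lines at 1.5-fold. The calls lie among the binding proteins, their proteases and inhibitors, ESM1 and IRS2, and STC1 lies farthest to the right at 3.12.

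Along the chromosome, the genes of the axis differed in how the protein-coding genes tested within 3 Mb of them behaved. Over all genes tested, 9.27% were called, 4.67% higher and 4.61% lower. All 17 neighbours of IGF1R had higher values in LM2-4175, 7 of them were called higher, and their median change was 1.13 (log2) against 0.13 over the other 367 genes of chromosome 15. The change of IGF1R, 0.95, was smaller than that of 10 of these neighbours. Among those called were ALDH1A3, a retinal dehydrogenase, which rose from 5.81 to 30.1 FPKM, VIMP, a selenoprotein of the endoplasmic reticulum, from 41.3 to 109 FPKM, ASB7, from 3.70 to 11.1 FPKM, TM2D3, from 8.02 to 23.7 FPKM, and TTC23, from 5.69 to 16.0 FPKM. The direction of all 17 was the same under each scaling. Both scalings raised the values of LM2-4175 relative to MDA-MB-231, so higher values could not have turned lower. The median of these neighbours was 1.13 and the change of IGF1R itself, which had wide bounds and was not called, was 0.95. A shared change of the region was not tested.

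Near IGFBP3, 30 of 31 neighbours had lower values in LM2-4175 and 4 were called lower, with a median of -0.61 against -0.35 over the other 531 genes of chromosome 7. With FPKM scaled to the same sum, 28 of the 31 were lower. None of them fell as far as IGFBP3. Those called were UPP1, a uridine phosphorylase, from 78.0 to 37.1 FPKM, CCM2, a scaffold of vascular integrity, from 33.3 to 15.5 FPKM, OGDH, a tricarboxylic acid cycle enzyme, from 65.0 to 38.2 FPKM, and IGFBP1.

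IGFBP7, IGFBP6 and IGFBP2 stood apart from the medians of their surroundings. The 17 neighbours of IGFBP7 had a median of -0.15, none fell as far, and the 2 that were called rose: KIAA1211, from 1.43 to 3.56 FPKM, and KDR, a VEGF receptor, from 0.971 to 2.48 FPKM. The 72 neighbours of IGFBP6 had a median of 0.04, and only the 3 keratin genes called lower there had a larger decrease, KRT8 from 626 to 180.2 FPKM, KRT7 from 295 to 89.9 FPKM and KRT18 from 448 to 181 FPKM. The 45 neighbours of IGFBP2 had a median of 0.13, and none had a larger increase. FN1, which encodes fibronectin, was called lower among them, from 314 to 117 FPKM.

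**Figure D5:**
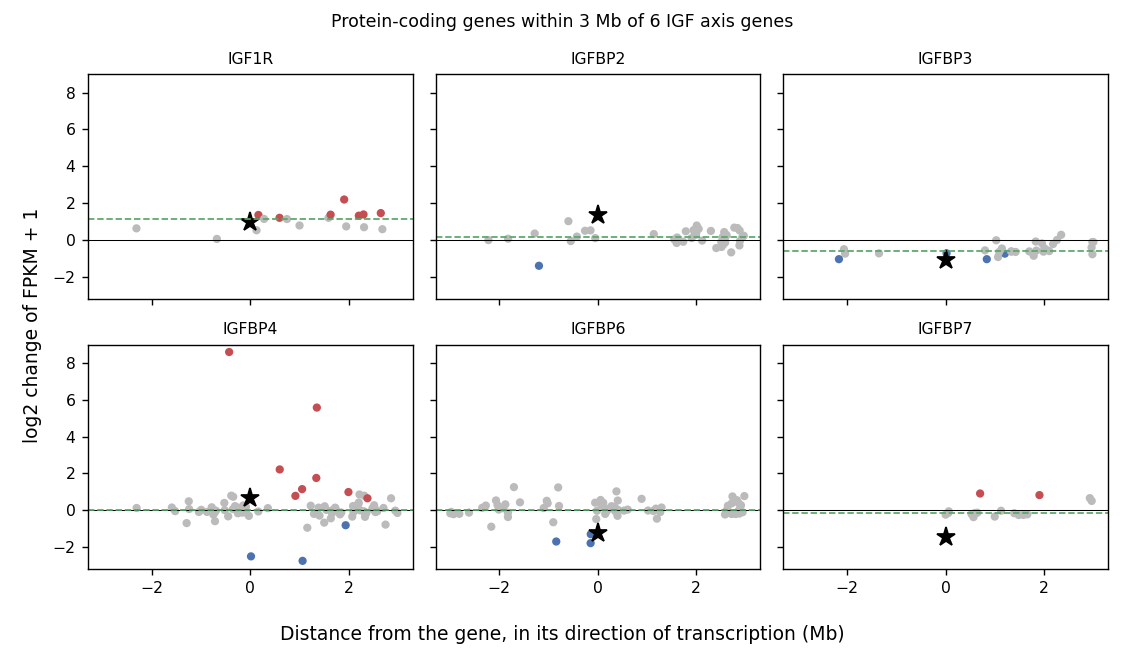
Change of the protein-coding genes tested within 3 Mb of 6 genes of the axis, as log2 of FPKM + 1 in LM2-4175 over MDA-MB-231, against the distance in Mb in the direction of transcription. Stars mark the gene itself, red and blue points neighbours called higher and lower, grey points other neighbours and dashed lines the median of the neighbours, and all 17 neighbours of IGF1R lie above 0 and 30 of the 31 neighbours of IGFBP3 below 0.

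The cell line labels were checked against markers. Of the 4 genes known to be expressed in MDA-MB-231, VIM had 1355 and 1768 FPKM, LGALS1 1789 and 1519 FPKM and CD44 470 and 355 FPKM, while KRT18, an epithelial keratin, was called lower in LM2-4175 (448 and 181 FPKM). Of the 6 luminal and hormone receptor genes, ESR1 and PGR, the oestrogen and progesterone receptors, were under 0.04 FPKM in both. The other 4 had signal, with ERBB2 at 34.95 and 22.8 FPKM, EPCAM at 12.3 and 4.93 FPKM, GATA3 at 3.10 and 2.42 FPKM and CDH1 at 0.851 and 0.366 FPKM. All 4 had lower values in LM2-4175, and only EPCAM was called. The epithelial genes KRT18 and EPCAM thus fell in the same direction as IGFBP3, IGFBP6 and IGFBP7, and their part in those changes was not tested. Of the leukocyte markers, CD14 had 1.17 and 1.75 FPKM, PTPRC had 0.0767 and 0.0263 FPKM and CD3E was listed at 0 in both. The 3 lung epithelium markers summed to 0.565 and 0.0855 FPKM, with SFTPC and SCGB1A1 listed at 0. Of the 3 fibroblast markers, COL1A1 was called higher (3.16 and 31.0 FPKM), PDGFRB was called lower (9.44 and 1.91 FPKM) and DCN was under 0.2 FPKM, so the list did not move in 1 direction, and their part in the changes of the binding proteins was not tested.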

How the data were processed

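Reads of 150 bases in pairs were mapped by the authors to hg19 with TopHat2, and genes of GENCODE 19 were quantified with Cufflinks and compared with Cuffdiff, as the study's methods and the submitters' processing notes state. Normalization between libraries and use of strand are not given in the sources used here, nor what the bounds include. The table deposited by the authors holds FPKM with bounds and a status, with the 2 libraries of each of the 2 cell lines combined. The depth per library was not read from it, and precision was judged from the bounds. Genes with a value of exactly 0 are said to be listed at 0. Those named here had the status OK, and whether a 0 means absence is not known.

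Changes, calls and shares were computed in Python 3.11.15 with NumPy 2.4.6 and pandas 2.3.3 and drawn with Matplotlib 3.10.9, with a pseudocount of 1 FPKM. Limits of a share or a ratio were set by taking each gene at the opposite bound. The call was run on simulated data whose noise was set from the bounds themselves. Spread between libraries beyond the bounds was therefore not covered. Of the 57815 genes, 55535 were matched by Ensembl ID to GENCODE 44 on GRCh37, and 99.993% of these overlapped the position given in the table. Shared exon bases were computed on GENCODE 44, which is not the release the authors quantified. The members, lists and rules were chosen with earlier results of these data known. Named are the 10 members, the pathway genes called, up to 3 large differences of a list without calls, and up to 5 called neighbours per member. IRS1, IGF2BP1, INS-IGF2, IGFALS and INSRR fell outside this rule and were chosen after their values were seen. SHC1 was not tested, as its status was not OK, and PECAM1 of the endothelial markers was not used here. The values of 1 leukocyte marker are not reported here. The 2 other endothelial markers, VWF and CDH5, summed to 0.0465 and 0.147 FPKM. The alternatives were other pseudocounts, filters, folds and scalings, and the fold or the bounds alone.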

Additional observations from a re-analysis of the deposited data

How the results depend on the processing

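IGFBP2, IGFBP3, IGFBP6 and IGFBP7 kept their calls under all 9 alternatives. For IGFBP3, IGFBP6 and IGFBP7, only the change of at least 2-fold and the scalings could have removed a call. For IGFBP2, only the change of at least 2-fold could have done so, as both scalings enlarged its rise. The other settings relax the rule, enlarge the change or leave the called genes of the axis as they are. Over the 9 tested genes of the axis and the 9 alternatives, 78 of 81 verdicts stayed and none reversed. Many of these verdicts could not have changed, as the filters did not reach any of the 9 genes. With the fold alone, 3 genes of the axis were called higher (IGF1R and IGFBP4 beside IGFBP2), 8 other pathway genes higher and 7 lower, and 1434 genes of the whole table higher and 1640 lower in place of 649 and 641. With FPKM scaled to the same sum, 2 genes of the axis were called higher (IGFBP4 added) and 1 other pathway gene lower in place of 3. With a change of at least 2-fold, 1 other pathway gene and 403 genes in all were lower. The median change of all genes was -0.04 as deposited and 0.03 with the same sum, and the calls were 50.3% and 57.8% higher. The share of IGFBP4 was 49.2% and 79.5% when IGFBP1 was added to the sum, a choice made after seeing the data.

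No paired analysis was possible because the libraries of each cell line were combined in 1 value. Leaving out a library was not run for the same reason. Differences in IGF2, IGFBP5, INSR and IGF1R smaller than their bounds could not be detected.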

Other observations

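Around IGFBP4, INSR, IGF2 and IGF2R, which were not called, neighbours within 3 Mb were called in both directions. The share called over all genes tested was 9.27% (4.67% higher and 4.61% lower). Around IGFBP4, 8 of 88 neighbours were called higher and 3 lower, with a median change of 0.02 on the log2 scale. CSF3, the granulocyte colony-stimulating factor, rose from 1.15 to 831 FPKM, FKBP10, a collagen-folding isomerase, from 0.425 to 67.0 FPKM, and KRTAP2-3 from 0.967 to 8.13 FPKM. KRT19, a keratin, fell from 250.3 to 36.3 FPKM, and TNS4, a tensin next to IGFBP4, from 13.5 to 1.55 FPKM. IGFBP4 itself was exceeded by 13 of its neighbours in the size of the increase.

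Around INSR, 7 of 100 neighbours were called higher and 1 lower, with a median of 0.09. C3, the central complement protein, rose from 6.45 to 117 FPKM, VAV1, a guanine nucleotide exchange factor of blood cells, from 0.448 to 10.8 FPKM, CD70, a TNF family ligand, from 0.0359 to 12.0 FPKM, EBI3, a cytokine subunit, from 2.61 to 9.29 FPKM, and TUBB4A, a tubulin, from 0.0600 to 1.88 FPKM. INSR had a lower value in LM2-4175, and 94 of the neighbours had a change above it.

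Around IGF2, 6 of 59 neighbours were called higher and 2 lower, with a median of -0.01 as deposited and of 0.07 with FPKM scaled to the same sum. MUC5AC, a gel-forming mucin, rose from 0.200 to 2.90 FPKM, SLC22A18, an imprinted transporter gene, from 3.30 to 9.45 FPKM, and BRSK2, a kinase, from 0.289 to 1.91 FPKM, while IFITM1, an interferon-induced membrane protein, fell from 37.9 to 11.3 FPKM, as did CTSD. Around IGF2R, 1 of 20 neighbours was called in each direction: SYTL3 rose from 0.543 to 4.24 FPKM, and EZR, which encodes ezrin, fell from 177 to 95.3 FPKM.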
